A study of Mus musculus with 7 samples.

Results

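Cholesterol synthesis was described through 8 mouse genes, Hmgcs1, Mvd, Idi1, Fdps, Fdft1, Sqle, Lss and Dhcr7, of 18194 genes measured in all. The 8 genes were listed by name as enzymes of the pathway, with earlier results of these data known, and all 8 were on the arrays. They had 20 probe sets assigned to 1 gene symbol, where a probe set is a group of short DNA probes that reports on 1 transcript, and the main value of a gene comes from the 1 whose log2 signal had the highest mean. Cholesterol is built from acetyl-CoA through mevalonate, whose isoprenoid units are joined into squalene, closed into the ring compound lanosterol and then trimmed and reduced to cholesterol. The transcription factor SREBP-2 activates most genes of this pathway when sterols in the endoplasmic reticulum are scarce. Liver is a main site of synthesis in the body, and brain makes its own cholesterol because lipoproteins of the blood do not cross into it.

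RNA was measured on 7 expression arrays, 1 for each cell type or tissue, as linear signals that the authors scaled to a common average in each array. Liver, Brain and Sk_muscle (skeletal muscle) came from male ICR mice older than 9 weeks, and how many animals each array stands for is not stated. Ect (ectoderm), End (endoderm) and Pme (paraxial mesoderm) were derived in culture from SK7, and SK7_ESC is the undifferentiated line itself. SK7 is a single line of male mouse embryonic stem (ES) cells that carries a green fluorescent reporter driven by the Pdx1 promoter, so the 4 cultured arrays share that transgene, and the labels name the strain ICR for all 7 samples. A signal under 50 was treated as background, and 7810 (Liver) to 9075 (Brain) genes per array exceeded it. The defining markers were above background in the sample they stand for in 4 of 4 cases for SK7_ESC, 3 of 4 for Ect, 4 of 4 for End, 5 of 5 for Brain, 4 of 4 for Liver and 5 of 5 for Sk_muscle. Pme had 2 of 5, Pdgfra at 1062 and Prrx1 at 305, while its other 3 markers, Tbx6, Meox1 and Tcf15, were under background there, and in Ect the neural factor Pax6 was under background at 30.5. Markers of other samples were also above background, among them Alb at 304, Cyp2e1 at 352 and Ttr at 77.3, 3 of 4 liver markers, in Sk_muscle. Ttr had 4212 in Brain, and Nanog had 299.5 and Pou5f1 57.3, 2 of 4 ES cell markers, in End. The End marker Cxcr4 had 781 in Ect and 166 in Pme, and Sox17 had 303 in Sk_muscle. Tcf15, under background in Pme, had 125 in Ect, 111 in SK7_ESC and 139 in Sk_muscle. Further markers crossed over in this way, and the part of all of them in the results was not tested. The summed signal of the liver markers was 50350 in Liver, 4239 in Brain and 776 in Sk_muscle, and that of the ES cell markers 402 in End against 12560 in SK7_ESC. With no replicate arrays there is no estimate of spread, so differences are given by size alone and no neighbouring levels in any order below can be told apart by a test. Signals of different probe sets depend on their probes and were not set against each other.

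Each of the 8 enzymes was above background in all 4 cultured arrays. All 8 had a lower signal in Brain, 7 in Sk_muscle and 7 in Liver, than in any cultured array. Shares of all genes were not computed for single tissues, so these counts stand without a background. Of the 6945 genes above background in all 4 cultured arrays, 33.0% lay lower in all 3 tissues at once. Their share for any single tissue can only be the same or larger. Hmgcs1, the HMG-CoA synthase that makes the precursor of mevalonate, had a signal of 1283 in Liver, 1180.1 in Brain and 518 in Sk_muscle, against 3733 in Ect, 3838 in End, 3729.5 in Pme and 2537 in SK7_ESC. The 3 tissues lay below the 4 cultured arrays, the layers stood close together above SK7_ESC, and muscle was lowest. Mvd, the decarboxylase that turns mevalonate diphosphate into the first isoprenoid unit, had 86.4 in Liver, 48.1 in Brain and 29.3 in Sk_muscle, against 189 in Ect, 283 in End, 247 in Pme and 208 in SK7_ESC. By this probe set it was under background in both Brain and Sk_muscle, while another probe set of Mvd had 51.8 in Brain. Idi1, the isomerase of that unit, had 645 in Liver, 272 in Brain and 71.5 in Sk_muscle, against 1028 in Ect, 1111 in End, 809.7 in Pme and 890.4 in SK7_ESC. The order of the tissues was again Liver, Brain and Sk_muscle, and Liver came within a factor of 1.26 of the lowest cultured array.

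Fdps, the farnesyl diphosphate synthase at the point where the sterol and the other isoprenoid branches part, had 1861 in Liver, 409.7 in Brain and 140.1 in Sk_muscle, against 1264 in Ect, 2483 in End, 2014 in Pme and 1809 in SK7_ESC. Liver here lay above both Ect and SK7_ESC, so that tissues and cultured cells overlapped. Fdft1, the squalene synthase that commits farnesyl diphosphate to sterols, had 637 in Liver, 527 in Brain and 904 in Sk_muscle, against 833 in Ect, 1075 in End, 1118 in Pme and 1069 in SK7_ESC. It was the exception among the 8, with Sk_muscle as its highest adult array and above Ect, Brain as its lowest, and a factor of 2.12 between its extremes.

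Sqle, the squalene epoxidase that brings in the oxygen of the later hydroxyl group, had 133 in Liver, 285 in Brain and 25.0 in Sk_muscle, against 946 in Ect, 975 in End, 984 in Pme and 944 in SK7_ESC. The cultured arrays were within a factor of 1.04 of each other, the tissues all lay at least 3.31-fold lower, and Brain rather than Liver was the highest of the 3. Lss, the lanosterol synthase that closes the ring, had 149 in Liver, 42.1 in Brain and 40.9 in Sk_muscle, against 271 in Ect, 429.5 in End, 365 in Pme and 309 in SK7_ESC. Of the tissues, Liver alone was above background by this probe set, while a second probe set had 67.7 in Brain. Dhcr7, the reductase of 7-dehydrocholesterol in the last step of the pathway, had 303 in Liver, 116 in Brain and 12.4 in Sk_muscle, against 321 in Ect, 480.3 in End, 336 in Pme and 309 in SK7_ESC. Liver was level with SK7_ESC, a factor of 1.02 apart, and muscle gave no signal above background.

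**Figure D1:**
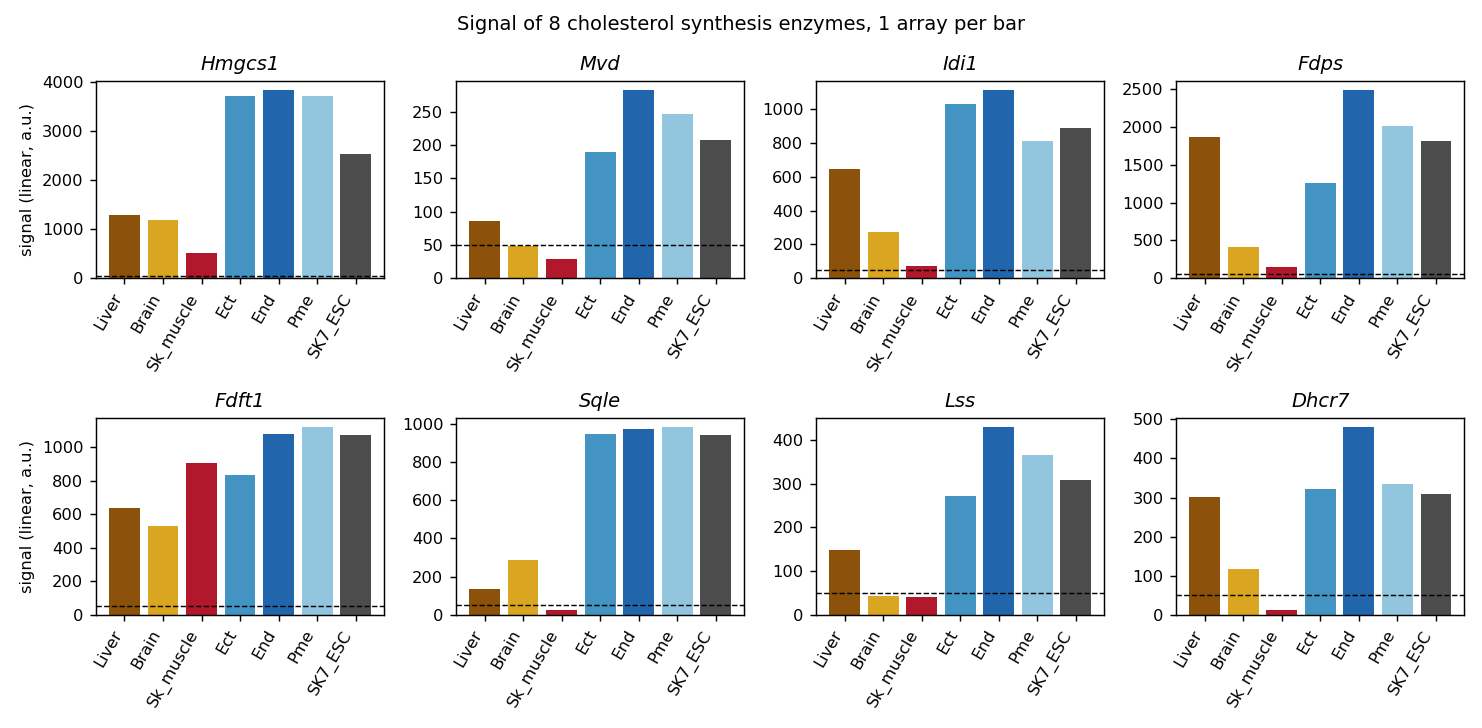
Signal of each of the 8 enzymes (linear scale, arbitrary units, 1 bar per array, dashed line at the background signal of 50) in Liver, Brain, Sk_muscle, Ect, End, Pme and SK7_ESC, each panel with its own axis. For 7 of the 8 enzymes the lowest bar is Sk_muscle (6 after quantile normalization or with arrays scaled to the same median), and Fdft1 is the exception, with Brain lowest at 527 and Sk_muscle at 904. The Brain and Sk_muscle bars of Mvd and Lss are all under the dashed line, so their order is not measured by these main probe sets.

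Taken by count, 6 of the 8 enzymes had a lower signal in each adult array than in each cultured array, all but Fdps and Fdft1. The same held for 12.6% of all genes and for 33.0% of the 6945 genes that, like all 8 enzymes, were above background in all 4 cultured arrays. By a margin of at least 2-fold it held for 2 enzymes, Mvd with 2.19-fold and Sqle with 3.31-fold, beside 4.19% of all genes and 11.0% of those 6945. The lowest of the 7 signals was in Sk_muscle for 7 enzymes (6 after quantile normalization and 6 with arrays scaled to the same median), beside 16.0% of all genes and 24.0% of the 6945. For Mvd and Lss, however, Brain was under background as well, so that their order was not measured by the main probe sets. By their other probe sets above background, Mvd had 51.8 in Brain against 13.7 in Sk_muscle, and Lss 67.7 against 22.8. By the main values, 5 enzymes had their lowest signal in Sk_muscle with no other array under background, beside 7.11% of all genes and 18.6% of the 6945. Liver was the highest adult array for 6 enzymes (5 after quantile normalization), beside 32.2% of all genes and 28.5% of the 6945. Across all 7 arrays the ratio of the highest to the lowest signal, with signals under 50 raised to 50, had a median of 9.10 over the 8 enzymes (2.12 for Fdft1 to 19.7 for Sqle) and of 4.20 over the 6945 genes, 82.4% of which lay below the median enzyme. Within the cultured arrays the corresponding medians were 1.50 for the enzymes and 1.69 for the 6945 genes.

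The 3 enzymes that followed the rest most closely over the 7 arrays, Hmgcs1, Mvd and Lss, are given with the 300 bases around their transcription start, 250 before and 50 after it, from RefSeq on build GRCm38.p6, since genes of this pathway are known targets of SREBP-2 together with the factor NF-Y. Capitals mark matches, on either strand, to TCACNCCAC, letters of the sterol response element, and to CCAAT, the box that NF-Y binds, which reads ATTGG where it lies on the opposite strand. The windows are chr13:119690101-119690400 on the plus strand for Hmgcs1, chr8:122443373-122443672 on the minus strand for Mvd and chr10:76531355-76531654 on the plus strand for Lss, each printed 5′ to 3′ in the direction of the gene.
Hmgcs1: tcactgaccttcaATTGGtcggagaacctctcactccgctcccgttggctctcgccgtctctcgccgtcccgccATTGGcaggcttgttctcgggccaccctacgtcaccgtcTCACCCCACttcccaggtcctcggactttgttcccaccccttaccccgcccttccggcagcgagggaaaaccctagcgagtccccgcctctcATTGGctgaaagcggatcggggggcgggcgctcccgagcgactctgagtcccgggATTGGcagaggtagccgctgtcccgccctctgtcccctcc
Mvd: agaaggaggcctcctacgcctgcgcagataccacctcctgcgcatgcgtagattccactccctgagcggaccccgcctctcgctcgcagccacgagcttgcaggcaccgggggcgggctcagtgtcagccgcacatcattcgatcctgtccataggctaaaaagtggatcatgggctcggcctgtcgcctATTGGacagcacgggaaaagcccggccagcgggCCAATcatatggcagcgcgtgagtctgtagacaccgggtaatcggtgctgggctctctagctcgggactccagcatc
Lss: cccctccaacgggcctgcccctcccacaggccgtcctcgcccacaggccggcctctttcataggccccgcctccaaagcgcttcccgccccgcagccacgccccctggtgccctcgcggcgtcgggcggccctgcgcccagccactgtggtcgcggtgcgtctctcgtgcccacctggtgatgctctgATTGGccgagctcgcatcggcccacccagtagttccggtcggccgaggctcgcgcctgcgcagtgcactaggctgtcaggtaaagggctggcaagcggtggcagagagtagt
The Hmgcs1 window held TCACCCCAC between positions -137 and -129 from the start, and ATTGG at 4 places, with first bases at -237, -176, -45 and 11. The Mvd window held ATTGG from -60 and CCAAT from -27, and the Lss window ATTGG from -62. Promoter windows were found for 5 of the 8 enzymes, 7 windows in all, as Dhcr7 had 3. CCAAT occurred in at least 1 window of 5 of 5 enzymes, beside 41.1% of 27025 genes. By window it occurred in 5 of 7, beside 37.4% of 32851 windows of the same length. TCACNCCAC occurred for 1 of 5 enzymes, beside 1.44% of genes, and in 1 of 7 windows, beside 1.24%. The GC box GGGCGG, which overlapped none of the marked matches, occurred for 5 of 5 enzymes, beside 38.2% of genes. It was found in 6 of 7 windows, beside 35.7%. A match describes the letters of the window and does not show that a factor binds there.

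Adult tissues were set against the layer that stands for their germ layer of origin, Brain against Ect, Liver against End and Sk_muscle against Pme. An enzyme was called higher or lower in one array when the brighter signal was above background and the ratio was at least 2, after signals under 50 were raised to 50, so that a ratio to such a signal is a lower bound. In these whole tissues fewer cells that express an enzyme and less RNA per cell cannot be told apart. Brain had lower signals than Ect for 7 of 8 enzymes and higher for 0, where 13.8% of all genes and 32.8% of the 6945 genes were called lower, and 12.3% and 9.91% higher. The largest differences were at least 5.43-fold for Lss and at least 3.78-fold for Mvd, followed by 3.78-fold for Idi1, 3.31-fold for Sqle, 3.16-fold for Hmgcs1, 3.09-fold for Fdps and 2.76-fold for Dhcr7. Fdft1, with 527 in Brain against 833 in Ect, differed by 1.58-fold and was not called. By the second probe set of Lss, with 67.7 in Brain against 118 in Ect, a factor of 1.74, Lss was not called either, and the count was 6. The median log2 ratio of the 8 was -1.70, beside -0.52 for the 6945 genes.

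Liver had lower signals than End for 4 enzymes, higher for 0, where 16.1% of all genes and 37.7% of the 6945 genes were called lower, and 11.3% and 12.4% higher, so that the count of 4 of 8 is near that background. Sqle was 7.31-fold lower in Liver, Mvd 3.27-fold, Hmgcs1 2.99-fold and Lss 2.88-fold. The remaining 4 stood below the layer by smaller factors, 1.72-fold for Idi1, 1.69-fold for Fdft1, 1.59-fold for Dhcr7 and 1.33-fold for Fdps. Without probe sets ending in _s_at, _x_at or _a_at, Hmgcs1 was 1.97-fold lower in Liver and not called, and the count was 3. The median log2 ratio was -1.16, beside -0.62 for the 6945 genes.

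Sk_muscle had lower signals than Pme for 7 enzymes, higher for 0, where 15.4% of all genes and 35.4% of the 6945 genes were called lower, and 11.2% and 14.7% higher. Sqle was at least 19.7-fold lower in Sk_muscle, Fdps 14.4-fold, Idi1 11.3-fold, Hmgcs1 7.19-fold, Lss at least 7.29-fold, Dhcr7 at least 6.71-fold and Mvd at least 4.94-fold. Fdft1 differed by 1.24-fold, with 904 in Sk_muscle against 1118 in Pme. The median log2 ratio was -2.86, beside -0.54 for the 6945 genes. In all 3 of these comparisons 8 of 8 enzymes lay below the layer by any size, also after quantile normalization and with arrays scaled to the same median. With the geometric mean of the probe sets it was 7 of 8 in Liver over End. The share of all genes below by any size was not computed, but the medians of the 6945 genes were also negative in all 3. Those genes, like the 8 enzymes, were above background in every cultured array, with no condition on the tissues. That choice favours a negative median, so its sign alone says little. With no signals raised, the median log2 ratio of all genes was 0 in Brain over Ect, 0.002 in Liver over End and 0 in Sk_muscle over Pme. The fat hormone Adipoq, the one measured marker of fat cells, had a signal of 688 in Sk_muscle and at most 13.6 in the other arrays. The 6 fibroblast and feeder cell markers were all above background in Sk_muscle, 5 in Pme and in Ect, 4 in SK7_ESC, End and Liver, and 3 in Brain. Their summed signal was 13040 in Sk_muscle and 8333 in Pme, against 527 to 2498 in the other 5 arrays. The part of these cells in the muscle values was not tested.

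**Figure D2:**
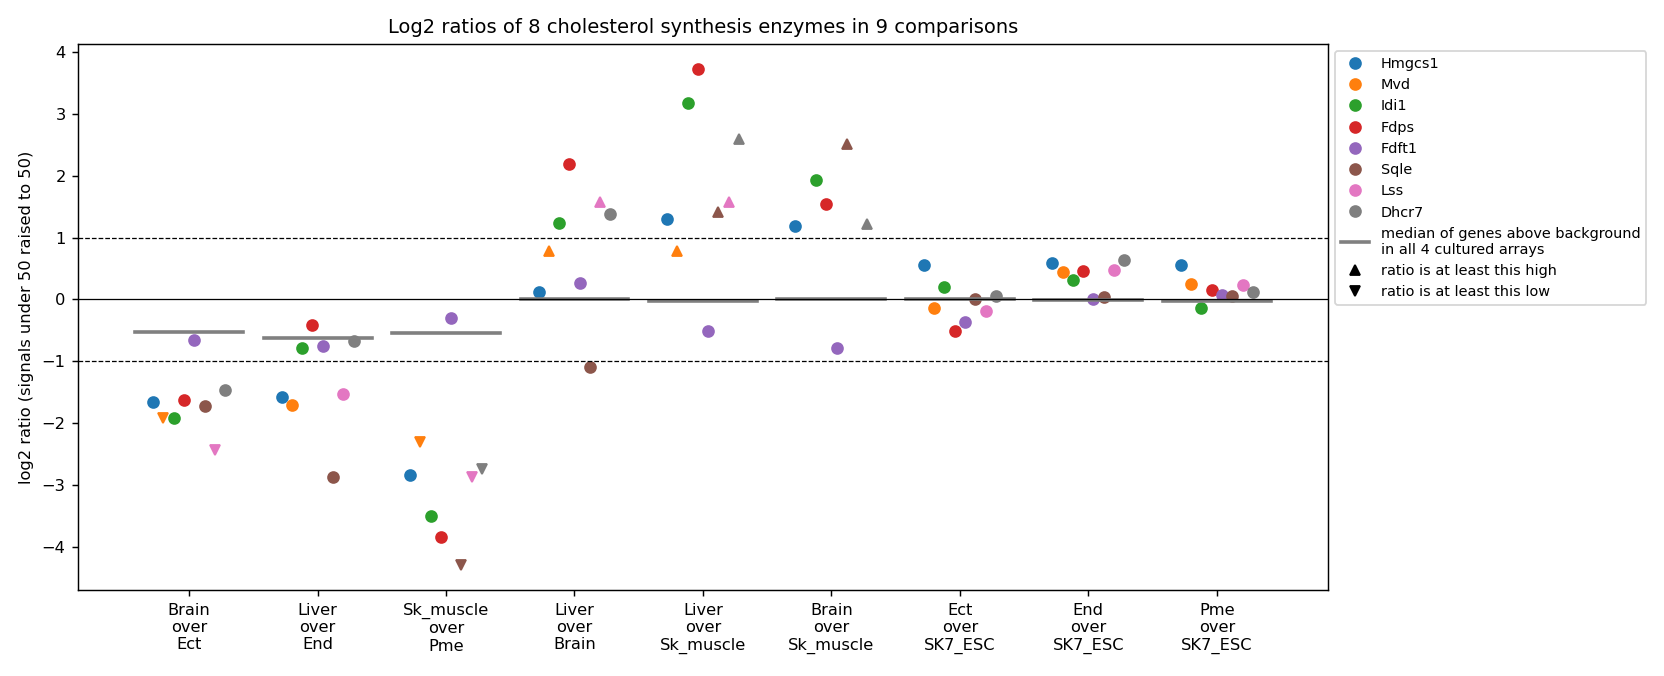
Log2 ratio (vertical axis, signals under 50 raised to 50) of each of the 8 enzymes in 9 comparisons of 2 arrays, with triangles for ratios that are lower bounds, dashed lines at the 2-fold rule and a grey bar at the median of 6945 genes above background in all cultured arrays. The medians of the enzymes are -1.70, -1.16 and -2.86 for tissue over layer and stay between -0.07 and 0.45 for layer over SK7_ESC, and Mvd and Lss have no point in Brain over Sk_muscle because both signals of their main probe sets were under background.

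Between the tissues, liver carried most of the enzymes at the highest signal and skeletal muscle at the lowest. Liver was higher than Sk_muscle for 6 of 8 enzymes and lower for 0, where 10.6% of all genes and 13.9% of the 6945 genes were called higher, and 12.1% and 19.9% lower. Fdps was 13.3-fold higher in Liver, Idi1 9.02-fold, Dhcr7 at least 6.05-fold, Lss at least 2.98-fold, Sqle at least 2.67-fold and Hmgcs1 2.48-fold. Mvd, with 86.4 in Liver against 29.3 in Sk_muscle, reached a bound of 1.73-fold, and Fdft1, with 637 in Liver against 904 in Sk_muscle, ran the other way by 1.42-fold, so neither was called. Brain was higher than Sk_muscle for 5 enzymes, lower for 0, where 14.1% of all genes and 17.5% of the 6945 genes were called higher, and 12.4% and 20.7% lower. These were Sqle, at least 5.71-fold, Idi1, 3.81-fold, Fdps, 2.92-fold, Dhcr7, at least 2.33-fold, and Hmgcs1, 2.28-fold, while Mvd and Lss were under background in both arrays by their main probe sets.

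Liver was higher than Brain for 4 enzymes and lower for 1, where 12.0% of all genes and 17.1% of the 6945 genes were called higher, and 15.6% and 20.2% lower. By any size Liver was above Brain for 7 of 8 (6 after quantile normalization, when Hmgcs1 turned), beside 49.3% of all genes and 47.8% of the 6945. Fdps was 4.54-fold higher in Liver, Lss at least 2.98-fold, Dhcr7 2.60-fold and Idi1 2.37-fold. Sqle was the 1 enzyme that was lower in Liver, at 133 in Liver against 285 in Brain, a factor of 2.14. Hmgcs1, with 1283 in Liver and 1180.1 in Brain, differed by 1.09-fold, and Fdft1 by 1.21-fold. By the second probe set of Lss, with 81.1 in Liver against 67.7 in Brain, Lss was not called, and the count of higher enzymes was 3. The Liver and Brain arrays carry the cells of whole organs: the 5 measured oligodendrocyte markers, genes of the cells that make myelin, were all above background in Brain, with a summed signal of 6594, against 166 to 414 in the other 6 arrays, and their part in the Brain values was not tested.

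Differentiation of the ES cells into the 3 layers moved the main value of none of the 8 enzymes by 2-fold. In Ect 0 enzymes were higher and 0 lower than in SK7_ESC, where 6.62% of all genes and 10.1% of the 6945 genes were called higher, and 4.89% and 7.76% lower. In End these counts were also 0 and 0, where 4.89% of all genes and 7.50% of the 6945 were higher, and 3.81% and 5.51% lower. In Pme they were 0 and 0, where 6.74% and 10.5% were higher, and 4.55% and 7.29% lower. The 3 comparisons share the SK7_ESC array. Below the 2-fold rule, End had the higher signal for 8 of 8 enzymes (6 with arrays scaled to the same median, when Fdft1 and Sqle turned), with a median log2 ratio of 0.45, where 49.2% of all genes and 48.9% of the 6945 genes were above SK7_ESC by any size. The largest of these ratios were 1.56-fold for Dhcr7 and 1.51-fold for Hmgcs1, and the smallest 1.01-fold for Fdft1 and 1.03-fold for Sqle. In Pme the signal was higher for 7 of 8, but for 2 with arrays scaled to the same median, so that no direction holds, and the median log2 ratio was 0.14, with Hmgcs1 1.47-fold above SK7_ESC and Idi1, at 809.7 in Pme against 890.4 in SK7_ESC, below it. In Ect the median was -0.07, with 4 enzymes above and 4 below (1 and 7 with arrays scaled to the same median), from Hmgcs1, 1.47-fold above, to Fdps, 1.43-fold below.

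Among the layers themselves the 2-fold rule called 0 of 8 enzymes in any pair, where of all genes 3.90% were called higher and 3.67% lower in Ect than in End, 2.65% higher and 3.67% lower in Ect than in Pme, and 2.56% higher and 3.90% lower in End than in Pme. Ect lay below End for 8 of 8 enzymes (7 after quantile normalization), with a median log2 ratio of -0.47, where End was above Ect by any size for 44.8% of all genes and 47.8% of the 6945. The widest gap was that of Fdps, with 1264 in Ect and 2483 in End, a factor of 1.96 that falls just short of the rule. Ect was above Pme for 2 enzymes and below it for 6, with a median log2 ratio of -0.22, and End was above Pme for 6 and below it for 2, with a median of 0.22. Shares of all genes by any size were not computed against Pme. After rescaling, Ect was above Pme for 1 (quantile normalization) or 2 (same median), and End above Pme for 5 or 8. By the main values, End was the highest cultured array for 6 enzymes, beside 19.5% of all genes and 19.0% of the 6945, and Pme for the other 2, Fdft1 and Sqle. The count for End was 5 after quantile normalization and with the geometric mean of the probe sets. It was also 5 without probe sets ending in _s_at, _x_at or _a_at. The other probe set of Mvd was highest in Pme, at 313 against 304 in End.

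Of the 20 probe sets of the 8 genes, 12 were not used as main values. Of these, 7 were above background in at least 5 arrays, and all 7 had their lowest signal in the same array as the main probe set of their gene. The second probe set of Fdft1 had 431 in Liver, 410.2 in Brain and 585 in Sk_muscle, against 607 in Ect, 761 in End, 779.8 in Pme and 822 in SK7_ESC. It repeated the shallow pattern of Fdft1, with Brain lowest, but put Sk_muscle just below Ect. The second probe set of Lss had 81.1 in Liver, 67.7 in Brain and 22.8 in Sk_muscle, against 118 in Ect, 182 in End, 155 in Pme and 81.1 in SK7_ESC, so that by this probe set End was more than 2-fold above SK7_ESC and Liver was level with it. By it Liver was also no more than 1.62-fold above Sk_muscle, against the call from the main probe set, and the count of enzymes higher in Liver than in Sk_muscle was 5. Under background in all 7 arrays were 4 probe sets, 1 of Fdps, 2 of Fdft1 and 1 of Lss. Sqle and Dhcr7 each rested on 1 probe set. The main probe sets of Hmgcs1, Fdft1 and Lss have identifiers that mark sequence shared between transcripts or probes.

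**Figure D3:**
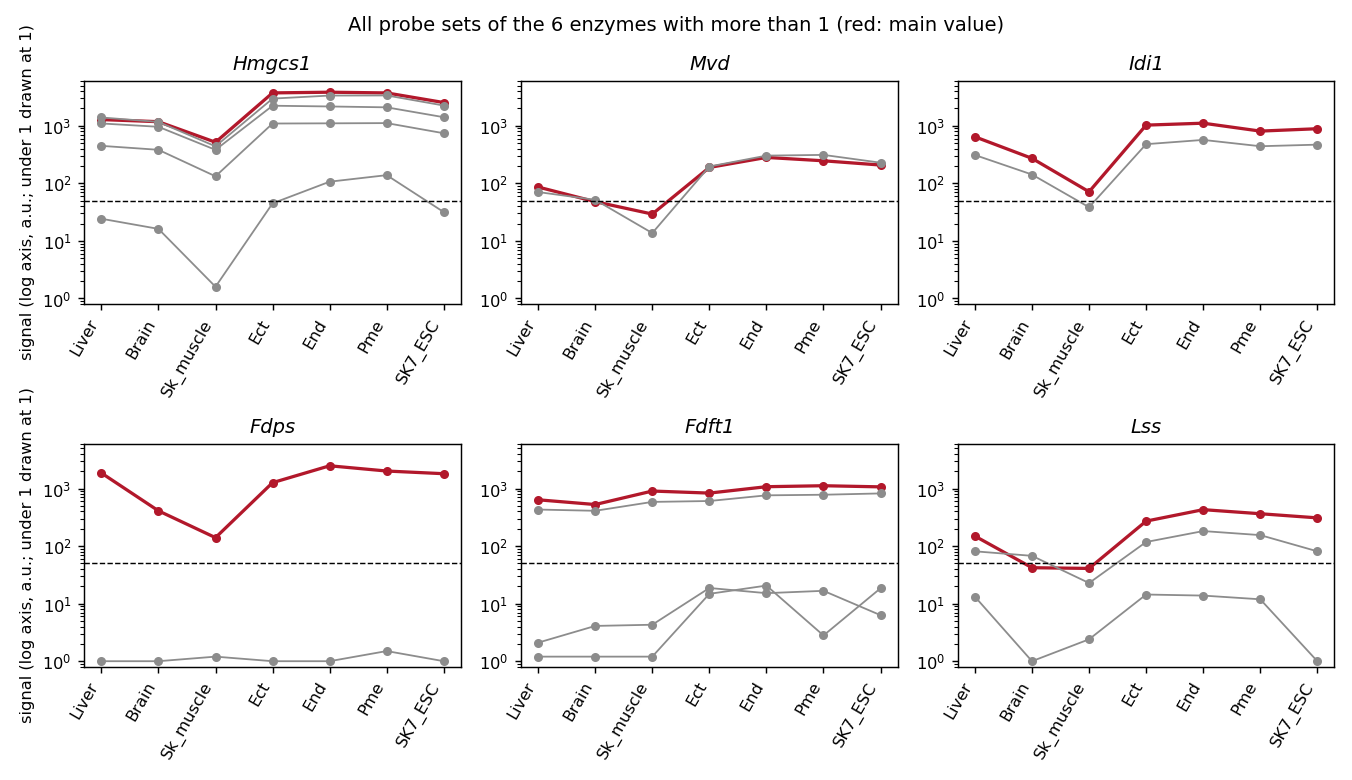
Signals of all probe sets (log axis, arbitrary units, values under 1 drawn at 1, dashed line at 50) of the 6 enzymes with more than 1 probe set, with the main probe set in red, the others in grey, and lines joining the 7 values of a probe set. The probe sets above background fall towards Sk_muscle for Hmgcs1, Mvd, Idi1 and Lss, and the 2 bright probe sets of Fdft1 stay within a narrow range in all 7 arrays.

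To describe how alike the members were, the log2 signals of each gene were centred on its mean over the 7 arrays, and the root mean square difference from the median profile of the other 7 enzymes was taken. The median profile of all 8 ran from 1.12 in End and 0.94 in Pme to -0.94 in Brain and -2.04 in Sk_muscle on this centred log2 scale, with -0.32 in Liver. Hmgcs1 was nearest, with a difference of 0.29 and rank 6 among 12461 genes, then Mvd with 0.37 and rank 29, Lss with 0.38 and rank 34 and Dhcr7 with 0.38 and rank 83. Idi1 had 0.50 and rank 279, Fdps 0.64 and rank 946, Sqle 0.77 and rank 1717, and Fdft1 was farthest with 0.98 and rank 2908. The median over all genes was between 1.16 and 1.24. The 7 points of a profile come from 7 arrays, of which 4 share a cell line, so the ranks are a description. The 8 enzymes were also chosen with earlier results of these data known, which can favour likeness among them. Other measured enzymes of the pathway ranked from 7 for Nsdhl to 10479 for Ebp among the genes outside the 8. Among genes outside the 8, the 10 nearest to the median profile were Coro1b, Nudt5, Mbtps1, Caap1, Acly, Rbbp6, Nsdhl, Nup155, Mapk1ip1l and D10Wsu102e, with differences of 0.20 to 0.30. Acly, the enzyme that supplies acetyl-CoA to the cytosol, had 783 in Liver, 654 in Brain and 177 in Sk_muscle, against 1799 in Ect, 2087 in End, 1689 in Pme and 1663 in SK7_ESC.

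Further enzymes of the pathway were taken from a list of 13, of which 10 were measured. The lowest signal was in Sk_muscle for 8 of these 10, Liver was the highest adult array for 9 and End the highest cultured array for 7, while 3 of 10 lay lower in each tissue than in each cultured array. Of the 6945 genes, which include these 10, the same held for 24.0%, 28.5%, 19.0% and 33.0%, so that the count of 3 is near its background. Brain was lower than Ect for 6 and higher for 0, with Lbr, a sterol reductase that is also the lamin B receptor, 14.5-fold lower and Cyp51, the lanosterol demethylase, 3.84-fold lower. Sk_muscle was lower than Pme for 7 and higher for 0, with Msmo1, the methylsterol oxidase, 14.9-fold and Cyp51 at least 14.7-fold lower. Of the 6945 genes, 32.8% were called lower and 9.91% higher in Brain than in Ect, and 35.4% and 14.7% in Sk_muscle than in Pme. Against End, Liver was higher for 3 of these 10 and lower for 2, where 12.4% of the 6945 genes were called higher and 37.7% lower. The median log2 ratios of the 10 were -1.10 in Brain over Ect, -1.90 in Sk_muscle over Pme and -0.27 in Liver over End, beside -0.52, -0.54 and -0.62 for the 6945 genes in the same 3 comparisons. Ebp, the sterol isomerase that acts after the methyl groups are removed, had 3447 in Liver against 148 to 339 in the other 6 arrays and was 10.2-fold higher than in End. Sc5d, the desaturase that forms 7-dehydrocholesterol, was 2.08-fold higher in Liver than in End, while Cyp51 was 3.12-fold and Lbr 6.43-fold lower. Liver was higher than Sk_muscle for 7 of 10 and than Brain for 5 of 10, with none lower. Of the 6945 genes, 13.9% were called higher and 19.9% lower in Liver than in Sk_muscle, and 17.1% and 20.2% in Liver than in Brain. Against SK7_ESC, End was higher for 3, namely Ebp by 2.14-fold, Cyp51 by 2.10-fold and Sc5d by 2.08-fold, Pme for 1, Sc5d by 2.29-fold, and Ect for 0, with 0 lower in each, where 7.50%, 10.5% and 10.1% of the 6945 genes were called higher.

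The 7 genes that control SREBP did not follow a single pattern. In Brain over Ect 1 was higher and 2 were lower, in Liver over End 3 and 3, and in Sk_muscle over Pme 1 and 4. Of all genes 12.3% were called higher and 13.8% lower in Brain over Ect, 11.3% and 16.1% in Liver over End, and 11.2% and 15.4% in Sk_muscle over Pme, shares that also stand beside the counts of the lists that follow. Srebf2, which encodes SREBP-2, had 81.7 in Liver, 175 in Brain and 38.5 in Sk_muscle, against 222 in Ect, 355 in End, 199.9 in Pme and 190.0 in SK7_ESC. The tissues lay below the cultured arrays, but Liver was 2.15-fold lower than Brain, the opposite order to that of 7 of the 8 enzymes. Srebf1, whose product acts more on fatty acid synthesis, had 700.1 in Liver, 134 in Brain and 141 in Sk_muscle, against 349 in Ect, 329 in End, 255 in Pme and 251 in SK7_ESC, with Liver alone above the cultured arrays. Insig1, which holds SREBP in the endoplasmic reticulum and is itself a target of SREBP, had 779.5 in Liver, 208 in Brain and 79.3 in Sk_muscle, against 317 in Ect, 481 in End, 427 in Pme and 418 in SK7_ESC. Its tissues had the order Liver, Brain and Sk_muscle, as in Idi1, Fdps and Dhcr7. Insig2, the second anchor protein, was 12.4-fold higher in Liver than in End and 7.79-fold higher than in Brain. Scap, which escorts SREBP to the Golgi, was 5.51-fold higher in Liver than in End, at 319.7 in Liver against 58.0 in End, and 2.98-fold lower in End than in SK7_ESC. Mbtps1, the protease that first cuts SREBP there, was 4.13-fold lower in Brain than in Ect, 2.87-fold lower in Liver than in End and 7.33-fold lower in Sk_muscle than in Pme.

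**Figure D4:**
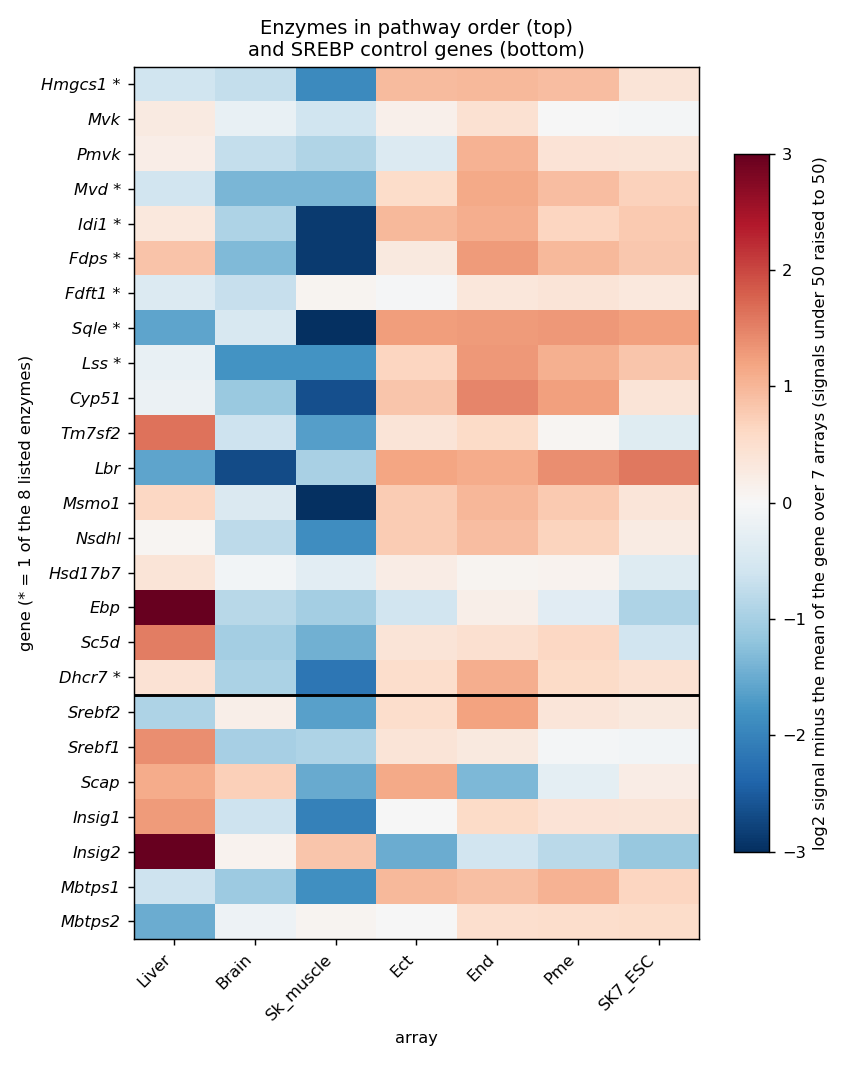
Log2 signal minus the mean of the gene over the 7 arrays (signals under 50 raised to 50, colours end at 3 and -3) for 18 enzymes from the first to the last step, the 8 listed ones marked by an asterisk, and for 7 SREBP control genes under the black line, with columns for Liver, Brain, Sk_muscle, Ect, End, Pme and SK7_ESC. The Sk_muscle column is blue for most enzymes and near the mean for Fdft1, and Liver is red for Ebp, Insig2 and Srebf1 while it is blue for Sqle, Lbr and Srebf2.

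Genes of cholesterol efflux and breakdown were mostly higher in Liver than in its layer. Of 6 measured efflux genes, 5 were higher in Liver than in End, beside 11.3% of all genes, and 0 lower, led by the transporter Abca1, at 4417 in Liver against 30.8 in End, at least 88.3-fold. Of 7 measured genes of breakdown, 4 were higher in Liver than in End and 0 lower, among them the bile acid enzymes Cyp7b1, at least 138-fold, and Hsd3b7, at least 64.4-fold. In Brain the 24-hydroxylase Cyp46a1, by which neurons export cholesterol, had 499 against 85.8 in Ect, 5.81-fold higher, and 32.6 in Liver and 29.3 in Sk_muscle. Of 9 measured genes of uptake and transport, 4 were lower in Sk_muscle than in Pme and 2 higher, beside 15.4% and 11.2% of all genes, and the carrier Stard4, at 45.3 in Sk_muscle and 423 in Pme, was at least 8.46-fold lower. Of 8 measured genes of the isoprenoid branch that leaves the pathway at Fdps, 0 were lower in Sk_muscle than in Pme and 1 was higher, Pdss2 of ubiquinone synthesis, at 309 in Sk_muscle against 69.1 in Pme. Of 11 genes of fatty acid synthesis, 8 were lower in Sk_muscle than in Pme and 3 higher, with the fatty acid synthase Fasn 16.5-fold lower, at 56.2 in Sk_muscle against 925 in Pme, and Acacb, the carboxylase form of muscle, at least 13.0-fold higher.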

How the data were processed

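The authors hybridized labelled RNA of each sample to 1 Affymetrix mouse array with 45101 probe sets, and deposited intensity on a linear scale normalized globally so that an array averages 100. How they summarised probes is not stated. The mean without the highest and lowest 2% of probe sets was 100 in all 7 arrays. The labels and the methods name different RNA kits. By the platform annotation, 34958 probe sets had 1 gene symbol, 932 had several and were left out, and 9211 were unnamed. Of those with 1 symbol, 34754 matched RefSeq by Entrez identifier. These gave 18194 genes, of which 12468 were above the background of 50 in at least 1 array. The 8 enzymes and the other lists were chosen with earlier results of these data known. Named genes were the 8 enzymes, Insig1, Srebf1, Srebf2, up to 4 called members of each list per comparison with the largest ratios, the 10 nearest profiles, and genes called in opposite directions. Calls were tested on data simulated with an assumed noise and with changes planted only in bright genes. That test does not cover changes in signals near background or the real noise of these arrays. With 1 array per condition the precision is limited by the number of arrays, and there are no p-values. Alternatives were quantile normalization, a background of 20, the geometric mean of probe sets, scaling to the same median, leaving out probe sets ending in _s_at, _x_at or _a_at, and a 3-fold rule. Python 3.11.15, numpy 2.4.6, pandas 2.3.3 and matplotlib 3.10.9 were used.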

Additional observations from a re-analysis of the deposited data

Results flagged for a closer look

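Several genes of the lists around the 8 enzymes, though 0 of the 8 themselves, were called in opposite directions when a tissue was set against its layer. Each is 1 array against 1 array, and the difference between the comparisons was not tested. Values are log2 ratios with signals under 50 raised to 50.

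Sterol enzymes first, Tm7sf2 had 1.05 in Liver over End, -1.004 in Brain over Ect and -1.73 in Sk_muscle over Pme. Sc5d had 1.05 in Liver over End, -1.41 in Brain over Ect and -2.06 in Sk_muscle over Pme. Among the control genes, Srebf1 had 1.09 in Liver over End and -1.39 in Brain over Ect. Scap had 2.46 in Liver over End and -1.21 in Sk_muscle over Pme, with signals just above background in End, at 58.0, and in Sk_muscle, at 52.0.

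Of the uptake genes, Vldlr, a lipoprotein receptor, had 1.08 in Brain over Ect and 1.52 in Sk_muscle over Pme but -4.21 in Liver over End, where it was under background at 31.4 in Liver. Scarb1, the receptor of high-density lipoprotein, had 2.10 in Liver over End and -1.34 in Sk_muscle over Pme. Lipa, the lysosomal acid lipase, had 3.30 in Liver over End and -1.58 in Sk_muscle over Pme. The fatty acid desaturases did likewise, with Scd1 at 1.38 in Liver over End and -1.19 in Sk_muscle over Pme, and Fads1 at 1.44 in Liver over End and -3.12 in Sk_muscle over Pme.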

How the results depend on the processing

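No paired analysis was possible because each condition has 1 array. Of 8 counts of enzymes above 0, recomputed 48 times under the alternatives, 39 values stayed within 1.5 times the main count and 9 did not. Of 11 counts of 0, recomputed 66 times, 63 stayed at 0 and 3 did not. The 3-fold rule cannot raise a count of 0 because it asks for more than the main rule. Its values among the 63 were therefore fixed beforehand and say nothing about stability. The count of enzymes lower in each tissue than in each cultured array sets no fold. Its value of 6 under the 3-fold rule was thus also fixed, and it is among the 39. Under a background of 20 all 19 counts stayed at 0 or within 1.5 times the main count. With arrays scaled to the same median, 3 enzymes rather than 5 were higher in Brain than in Sk_muscle and 1 rather than 0 was lower. Sqle lost its call as lower in Liver than in Brain, a count of 1 that became 0, under quantile normalization, under scaling to the same median and under the 3-fold rule. With the geometric mean of the probe sets, 2 rather than 4 enzymes were higher in Liver than in Brain, and 1 rather than 0 in End than in SK7_ESC. The End count was also 1 without probe sets ending in _s_at, _x_at or _a_at. The 3-fold rule left 2 higher in Brain than in Sk_muscle, 1 in Liver than in Brain, 3 in Liver than in Sk_muscle and 2 lower in Liver than in End, fewer because it asks for more. The causes of the other changes were not tested. The count of 6 enzymes lower in each tissue than in each cultured array was 6 under quantile normalization too, but there Dhcr7, at 323 in Liver and 302 in SK7_ESC, left it and Fdft1, at 846 in Sk_muscle and 873 in Ect, joined it.

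Scaling to the same median moved the median log2 ratio of all genes by over 0.1 in 6 of the 9 comparisons, most in Brain over Ect, at -0.40, and Brain over Sk_muscle, at -0.39, against 0 and -0.02 in the main setting. It changed the share of higher genes among those called to 41.6% against 57.5% in Ect over SK7_ESC, to 43.2% against 59.7% in Pme over SK7_ESC, to 31.0% against 47.1% in Brain over Ect, to 38.9% against 53.2% in Brain over Sk_muscle and to 56.3% against 43.5% in Liver over Brain. Signals near 50 carry little information, so ratios of Mvd, Lss, Sqle and Dhcr7 in Sk_muscle are bounds.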

Other observations

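Apoe, the lipoprotein component that carries cholesterol between cells, was higher in Brain than in Ect by 22.4-fold, with a signal of 2381 in Brain against 107 in Ect. In culture its signal was 107 for Ect, 1612 for End and 232 for Pme, against 2258 for SK7_ESC, so that it was 21.2-fold lower in Ect and 9.73-fold lower in Pme than in the ES cells. Npc1, which moves cholesterol out of lysosomes, had 439.7 in End against 118 in SK7_ESC, 3.71-fold higher, and Stard4 was 2.92-fold higher there. Scd2, the stearoyl-CoA desaturase of brain, had 40.9 in Liver against 4316 in End, at least 86.3-fold lower, and 3773 in Brain.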
